A study of Mus musculus with 4 samples.

Results

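Type A intercalated nuclei of the mouse kidney were chosen by raw counts of unique molecular identifiers (UMIs) of 13 genes, with no clustering. A barcode entered with at least 200 genes, at most 10% mitochondrially encoded UMIs, at least 1 UMI summed over *Slc4a1*, *Aqp6* and *Kit*, and at least 1 UMI summed over *Atp6v1g3*, *Atp6v0d2*, *Foxi1* and *Atp6v0a4*. It had no UMI of *Slc26a4* or *Insrr*, which mark type B intercalated cells, and at most 3 UMIs summed over the proximal tubule genes *Slc34a1*, *Lrp2*, *Cubn* and *Slc27a2*. Of 38481 barcodes that met the limits on genes and mitochondrial UMIs, out of 39074 deposited, 423 met the whole rule. The study made droplet libraries of kidney nuclei from female mice, with renal cortex named in its design. There was 1 library each of MRL/lpr mice aged 10 weeks, MRL/lpr mice aged 6 weeks, C57BL/6 mice aged 10 weeks and C57BL/6 mice aged 6 weeks. MRL/lpr mice lack a working death receptor Fas through the lpr allele and develop lupus-like nephritis, and C57BL/6 is a common laboratory strain. MRL mice with intact *Fas* were not analysed here, so the allele, the strain background and disease cannot be told apart. How many animals gave a library is not stated. With 1 library per strain and age, differences between strains or ages have no replicate check and were not tested, and their intervals cover counting error only.

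Intercalated cells are scattered among the principal cells of the connecting tubule and collecting duct and keep acid-base balance. Type A cells secrete acid: a vacuolar proton pump (V-ATPase) works in the apical membrane, and the chloride-bicarbonate exchanger encoded by *Slc4a1* returns bicarbonate to the blood. Type B cells secrete bicarbonate through the exchanger pendrin, encoded by *Slc26a4*. Both types depend on the forkhead factor encoded by *Foxi1*, whereas principal cells reabsorb sodium and water through the sodium channel subunits encoded by *Scnn1b* and *Scnn1g* and the water channel encoded by *Aqp2*. *Aqp6* encodes an intracellular aquaporin, *Kit* the receptor of stem cell factor, and *Insrr* a receptor that senses alkali.

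The rule kept 95 and 105 nuclei of MRL/lpr mice at 10 and 6 weeks and 126 and 97 of C57BL/6 mice. Their median depths were 393 and 471 UMIs in MRL/lpr at 10 and 6 weeks, against 466 and 457 UMIs in C57BL/6, and their summed depths 38982 and 55684 UMIs in MRL/lpr, against 64984 and 50762 UMIs in C57BL/6. As a description of the values that chose them, *Kit* was detected in 232 members, *Slc4a1* in 211 and *Aqp6* in 209, and 37 members had all 3. *Slc4a1* was detected in 38.9 and 44.8% of members in MRL/lpr at 10 and 6 weeks, against 53.97 and 60.8% of members in C57BL/6. *Atp6v0d2*, a V-ATPase subunit gene, was detected in 52.6 and 43.8% of members in MRL/lpr at 10 and 6 weeks, against 52.4 and 49.5% of members in C57BL/6. Just inside the limits, 53 members had 1 UMI of each of the required gene groups and 3 had a proximal tubule sum of 3 UMIs. Just outside, 3 barcodes had a sum of 4 UMIs, and 7 had a lone UMI of *Slc26a4* or *Insrr*.

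Barcode sequences shared between a pair of libraries numbered 112 to 143, and none was a member in both. All kept barcodes together held 6385228 to 7660163 UMIs per library. Within members, 13 macrophage and lymphocyte markers summed to 0 and 7 UMIs in MRL/lpr at 10 and 6 weeks, against 2 and 2 UMIs in C57BL/6. Levels are given below as UMIs per 1000000 UMIs of the gate (CPM). Markers of the distal convoluted and connecting tubule, 9 genes, summed to 4797 and 5926 CPM in MRL/lpr at 10 and 6 weeks, against 5601 and 11859 CPM in C57BL/6. Those of the thick ascending limb, 7 genes, summed to 385 and 1724 CPM in MRL/lpr at 10 and 6 weeks, against 908 and 926 CPM in C57BL/6, and those of principal cells, 13 genes, to 795 and 1742 CPM in MRL/lpr, against 1246 and 847 CPM in C57BL/6. The part of these other cells in the results was not tested, except where nuclei holding their UMIs were left out. That alternative left out members with at least 2 UMIs of the markers of another class, type B not among them. It kept 59 of 95 and 45 of 105 members in MRL/lpr at 10 and 6 weeks, and 69 of 126 and 43 of 97 in C57BL/6. Members with at least 2 distal convoluted and connecting tubule UMIs were 21.1 and 34.3% in MRL/lpr, against 36.5 and 42.3% in C57BL/6. In nuclei chosen as type B (below) these shares were 37.3 and 31.8%, against 33.2 and 44.9%. *Trpm7* of this list was not confined to these segments, at 335 to 513 CPM in members and 438 to 531 CPM in proximal tubule nuclei.

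Members were 1.001% (95% exact binomial interval 0.811 to 1.22%) of kept barcodes in MRL/lpr and 1.31% (95% exact binomial interval 1.09 to 1.56%) in C57BL/6 at 10 weeks. At 6 weeks they were 1.12% (95% exact binomial interval 0.918 to 1.36%) in MRL/lpr and 0.969% (95% exact binomial interval 0.787 to 1.18%) in C57BL/6. The share ratio of MRL/lpr over C57BL/6 came to 0.764 (0.579 to 1.01) at the later age and 1.16 (0.870 to 1.54) at the earlier, and both intervals held 1. With at least 2 UMIs of each gene group the ratios were 0.479 (0.311 to 0.726) and 0.855 (0.536 to 1.36). With every barcode thinned to 300 UMIs they were 0.710 (0.517 to 0.973) and 0.949 (0.671 to 1.34). The 6 alternatives run put the later ratio between 0.479 and 0.867, below 1, and the earlier one between 0.855 and 1.24, on either side of 1.

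**Figure D1:**
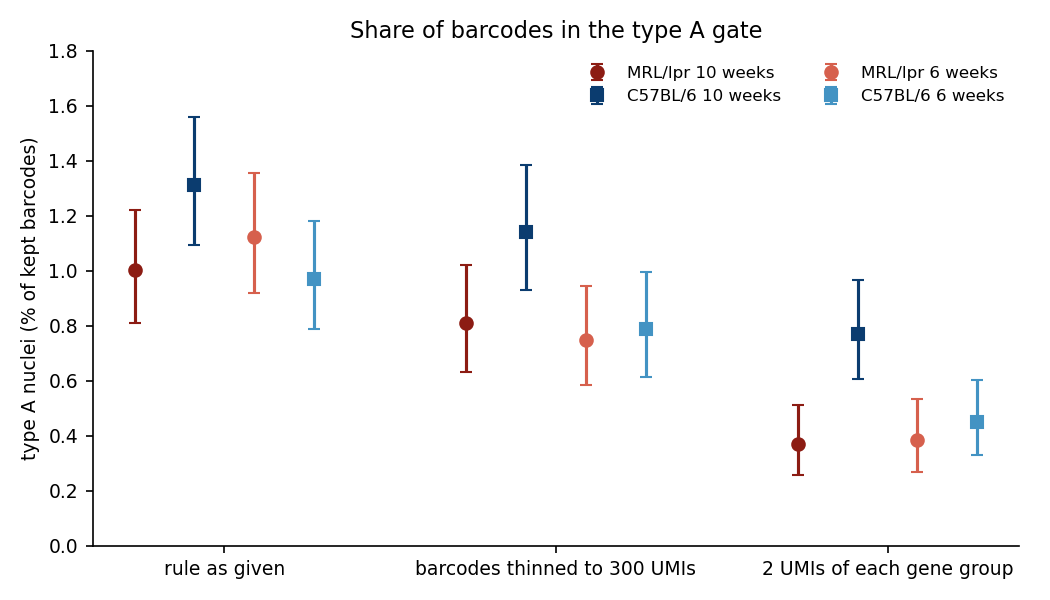
Share of kept barcodes that were type A nuclei (percent, vertical axis) in each library under the rule as given, after thinning to 300 UMIs and with 2 UMIs of each gene group; points are single libraries and bars exact binomial 95% intervals. The C57BL/6 library at 10 weeks is the highest in all 3 settings, at 1.31%, 1.14% and 0.769%.

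The label was checked with 11 type A markers outside the rule, against 830 type B nuclei of the same libraries. These held *Slc26a4* or *Insrr*, an intercalated gene and none of *Slc4a1*, *Aqp6* and *Kit*. Of 8 markers tested, 5 were higher in type A nuclei and 1 was lower, with a median log2 fold change of 0.76 against -0.01 over all genes. The edgeR quasi-likelihood test, with library as a block and Benjamini-Hochberg adjusted p under 0.05, called 107 of 2238 genes higher (4.78%) and 130 lower (5.81%), or 10.6% in all. The genes of the rule were fitted but not counted. Type B nuclei were deeper, with medians of 609 and 679 UMIs in MRL/lpr at 10 and 6 weeks, against 525.5 and 575 UMIs in C57BL/6, and the part of depth in these counts was not tested.

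*Adgrf5*, which encodes an adhesion G protein-coupled receptor, stood in type A nuclei at 2078 and 1652 CPM in MRL/lpr at 10 and 6 weeks, against 1785 and 1497 CPM in C57BL/6. In type B nuclei it stood at 72.9 and 157 CPM in MRL/lpr, against 84.4 and 112 CPM in C57BL/6. The gates did not overlap, and the log2 fold change was 3.94 (SE 0.21, adjusted p = 4.4e-42). *Mme*, the gene of the peptidase neprilysin, stood in type A nuclei at 1026 and 969.8 CPM in MRL/lpr at 10 and 6 weeks, against 539 and 315 CPM in C57BL/6, and in type B nuclei at 36.5 to 59.9 CPM. Its log2 fold change was 3.77 (SE 0.29, adjusted p = 6.9e-26). *Rhbg*, a basolateral ammonia transporter gene, was higher by 1.01 (SE 0.18, adjusted p = 2.2e-06), and *Rhcg*, its apical relative, by 0.52 (SE 0.17, adjusted p = 0.036). *Avpr1a*, a vasopressin receptor gene, had -0.70 (SE 0.33, adjusted p = 0.18). *Slc26a7*, *Slc26a11* and *Kcnma1* were too low to test.

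A pair of transcription factor genes separated the gates. *Dmrt2*, a doublesex-related factor, had in type A nuclei 10 and 14 UMIs in MRL/lpr at 10 and 6 weeks, against 29 and 15 UMIs in C57BL/6, and none in type B nuclei of any library. It was detected in 13.9% of type A nuclei (exact interval 10.8 to 17.6%) and in 0 of 830 type B nuclei, for which the exact interval reaches 0.443%. The type A nuclei had a median of 446 UMIs and the type B nuclei 597. Thinned to 300 UMIs, 9.14% of type A nuclei kept it, and the share in 10053 proximal tubule nuclei (over 3 UMIs of the proximal tubule genes and none of the type A, type B or intercalated ones) was 0.0298% at a median of 777 UMIs. Pooled over libraries it was at least 56.7-fold higher, with the 0 of type B nuclei set at 3 UMIs over the group.

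*Hmx2*, a homeobox factor, stood on the type A list but was the member that went the other way. Whether it belongs on such a list is in doubt, and no source was at hand to check the entry. The count of 5 higher and 1 lower marker above includes it. No type A nucleus had it, while type B nuclei had 65 and 130 UMIs in MRL/lpr at 10 and 6 weeks, against 93 and 134 UMIs in C57BL/6. On the same floor it was at least 56.2-fold lower in type A nuclei. Principal nuclei had no UMI of it either. The adjusted p was 4.7e-19 for *Dmrt2* and 1.9e-31 for *Hmx2*. *Tfcp2l1*, a factor needed for intercalated cells in mice, was also higher in type A nuclei, by 0.59 (SE 0.13, adjusted p = 3.5e-04), and *Jag1*, a Notch ligand gene, was lower, at -1.82 (SE 0.33, adjusted p = 3.5e-06). These were the 4 calls among 12 fate genes tested, while *Esrrg* (0.06), *Mecom* (0.00) and *Foxp1* (0.13) did not pass. Over all genes 10.6% were called.

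**Figure D2:**
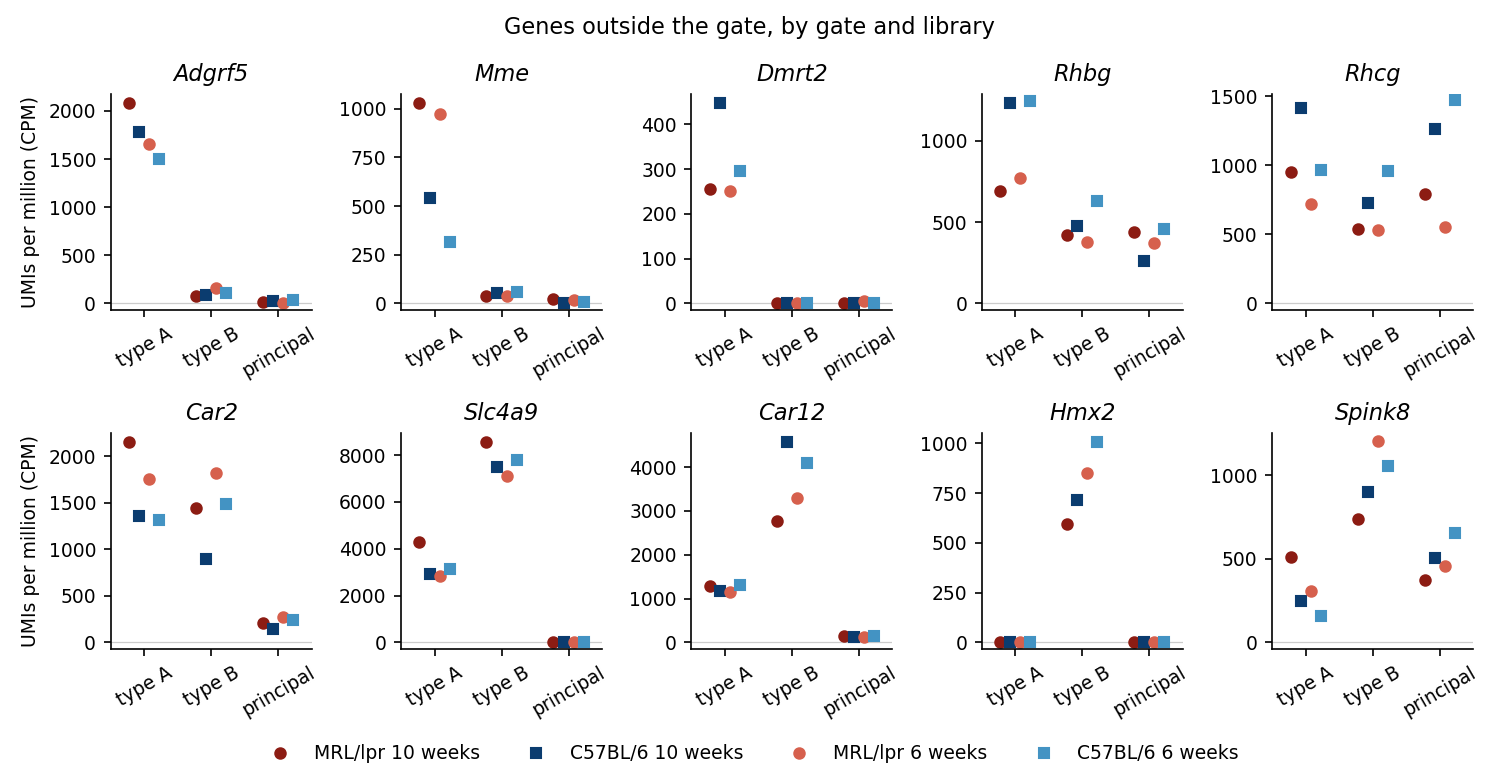
Level (CPM, vertical axis, linear) of 10 genes outside the rule in type A, type B and principal cell nuclei; each point is 1 library, circles MRL/lpr and squares C57BL/6. *Adgrf5*, *Mme* and *Dmrt2* are high in type A nuclei and low in the other gates, *Hmx2* is at 0 in type A and principal nuclei, and *Slc4a9* in type A nuclei lies between type B and principal nuclei.

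The RefSeq windows from 250 bases before to 50 after the starts of *Dmrt2* and *Hmx2* (build GRCm38.p6) are shown because these genes were at 0 in opposite gates. *Hmx2* has 2 windows. Capitals mark CpG dinucleotides.
Dmrt2, chr19:25672161-25672460, plus strand: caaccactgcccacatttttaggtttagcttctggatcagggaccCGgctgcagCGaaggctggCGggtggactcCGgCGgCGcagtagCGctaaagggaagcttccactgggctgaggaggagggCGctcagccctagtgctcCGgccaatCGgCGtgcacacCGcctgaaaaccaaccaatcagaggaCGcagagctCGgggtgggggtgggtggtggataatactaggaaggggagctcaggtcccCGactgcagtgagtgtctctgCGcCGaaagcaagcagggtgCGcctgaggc
Hmx2, first window, chr7:131548507-131548806, plus strand: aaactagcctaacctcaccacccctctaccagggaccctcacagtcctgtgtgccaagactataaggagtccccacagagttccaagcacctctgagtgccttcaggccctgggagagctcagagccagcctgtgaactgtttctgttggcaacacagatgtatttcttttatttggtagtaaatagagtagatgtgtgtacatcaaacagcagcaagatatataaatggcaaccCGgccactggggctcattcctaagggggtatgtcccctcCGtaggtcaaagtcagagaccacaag
Hmx2, second window, chr7:131554043-131554342, plus strand: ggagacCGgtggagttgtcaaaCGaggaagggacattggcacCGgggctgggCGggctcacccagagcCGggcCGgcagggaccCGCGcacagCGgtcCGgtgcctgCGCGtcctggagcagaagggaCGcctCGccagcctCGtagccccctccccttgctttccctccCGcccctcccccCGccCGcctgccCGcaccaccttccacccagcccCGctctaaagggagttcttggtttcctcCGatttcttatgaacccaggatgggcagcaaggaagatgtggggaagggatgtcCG

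The *Dmrt2* window held 18 CpG and the *Hmx2* windows 2 and 22, against a median of 7 over 32851 windows (quartiles 3 and 20). The forkhead core TGTTTAC, searched on both strands (GTAAACA on the other), was the motif tried, since *Foxi1* is in the rule. None of the windows shown held it. It was in a window of 4.05% of 27025 genes, of 3.57% of 84 genes higher than in type B nuclei and of 2.91% of 103 lower ones. The share was 3.30% of 1789 genes tested against type B nuclei and 5.24% of 267 genes higher than in principal nuclei. The count of CpG was added after the motif gave no match.

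The rule for naming took the 12 largest differences in each direction. Upward, after *Dmrt2*, came *Slc35f1*, a solute carrier family gene, at 525 ± 13.5 CPM in type A and 5.78 ± 4.001 CPM in type B nuclei (SD, n = 4 libraries). *Nkain3*, whose product interacts with the sodium pump, was at 322 ± 74.1 and 5.14 ± 6.36 CPM, and *Pdlim3*, an actin-associated LIM protein gene, at 306 ± 168 and 5.14 ± 6.36 CPM. *Calcr*, the calcitonin receptor gene, was at 366 ± 134 and 12.1 ± 18.6 CPM. *Dscaml1*, a cell adhesion gene, had the largest adjusted p of the 12, 8.4e-09, and rested on 41 UMIs in type A and 2 in type B nuclei or 51.3-fold (13.3 to 438) higher when pooled. *Lrrc31*, *Fut8* (a core fucosyltransferase), *Kctd8* and *Pitpnc1* (a phosphatidylinositol transfer protein) had log2 fold changes of 4.15, 4.02, 3.98 and 3.34.

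Downward, *Lsamp*, a neural cell adhesion gene, was at 45.96 ± 62.7 CPM in type A and 7846 ± 2762 CPM in type B nuclei. Type A nuclei had 1 and 0 UMIs in MRL/lpr at 10 and 6 weeks, against 9 and 1 UMIs in C57BL/6, and type B nuclei 1221 and 1395 UMIs in MRL/lpr, against 687 and 784 UMIs in C57BL/6. Of the 12 named downward it had the highest level in type B nuclei, and 9 of its 11 UMIs in type A nuclei came from the C57BL/6 library at 10 weeks. *Nbea*, a membrane trafficking gene, was at 42.6 ± 41.8 and 2311 ± 213 CPM, and *Thsd7a* at 38.5 ± 38.95 and 1179 ± 677 CPM. *Ripor2*, *Myo5a* (an actin motor) and *Syt7* (a calcium sensor of exocytosis) had no UMI in type A nuclei and were at least 29.97-, 22.8- and 17.2-fold lower. *Ank*, a membrane transporter gene linked to pyrophosphate, *Cacna2d1*, a calcium channel subunit gene, and 4930469K13Rik had 1 UMI each in type A nuclei, and were 63.9-fold (11.3 to 2541), 63.1-fold (11.2 to 2509) and 56.3-fold (9.95 to 2241) lower, pooled over libraries. *Tmem163* and *Sh2d4b* had log2 fold changes of -4.02 and -3.72.

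*Slc4a9*, a basolateral anion exchanger gene listed as a type B marker, was lower in type A nuclei, with a log2 fold change of -1.29 (SE 0.12, adjusted p = 1.4e-19), but far from absent. Type A nuclei had 4284 and 2819 CPM in MRL/lpr at 10 and 6 weeks, against 2939 and 3132 CPM in C57BL/6, and type B nuclei 8539 and 7114 CPM in MRL/lpr, against 7489 and 7806 CPM in C57BL/6. Principal nuclei had 9.07 to 24.8 CPM. Members with *Slc4a1* had 3133 CPM and members without it 3277 CPM. Members with at least 2 UMIs of each gene group had 3149 CPM and those with 1 UMI of each 3114 CPM. These subsets, and the barcodes just outside the rule, were looked at after the values were seen. *Adgrf5* was at 1571 CPM with *Slc4a1* and 1906 CPM without it. A further 60 barcodes met the rule but for *Slc26a4* or *Insrr*: they had 7959.7 CPM of *Slc4a9* and 173 CPM of *Adgrf5*, and their type A UMIs were 62 of *Kit*, 14 of *Aqp6* and 8 of *Slc4a1*.

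Of the 4 type B markers tested, *Spink8*, a protease inhibitor gene, was the other lower one, with a log2 fold change of -1.78 (SE 0.21, adjusted p = 1.7e-12). *Oxgr1*, the receptor gene for 2-oxoglutarate, had 0.51 (SE 0.20, adjusted p = 0.085), with 590.0 and 664 CPM in MRL/lpr at 10 and 6 weeks, against 646 and 532 CPM in C57BL/6 in type A nuclei and 339.7 to 576 CPM in type B nuclei. *Parm1* had -0.15 (SE 0.29, adjusted p = 0.85). Among 15 acid-base genes, *Rhbg* and *Rhcg* were higher, and *Slc4a9*, *Car12*, *Car15* (membrane carbonic anhydrases) and *Clcn3* (a vesicular chloride transporter) were lower, with a median of 0.13. Over all genes 4.78% were higher and 5.81% lower. *Car12* had -1.62 (SE 0.14, adjusted p = 9.9e-21), and *Car2*, the cytosolic carbonic anhydrase gene, 0.18 (SE 0.15, adjusted p = 0.55).

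Of 15 V-ATPase subunit genes tested outside the rule, none was higher and 1 was lower in type A than in type B nuclei, where 4.78% of all genes were higher and 5.81% lower, so the count is near that of all genes. The median was -0.35. The lower one was *Atp6v1c2*, a subunit of the peripheral sector, at -0.66 (SE 0.16, adjusted p = 7.6e-04). *Atp6v1b1*, the subunit of kidney and inner ear, stood in type A nuclei at 1026 and 700.4 CPM in MRL/lpr at 10 and 6 weeks, against 862 and 788 CPM in C57BL/6, and in type B nuclei at 993 and 902 CPM in MRL/lpr, against 752 and 659 CPM in C57BL/6. Its log2 fold change was -0.01 (SE 0.17, adjusted p = 0.98). The other subunits that reached 50 UMIs lay between -0.37 and 0.12, and none passed.

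**Figure D3:**
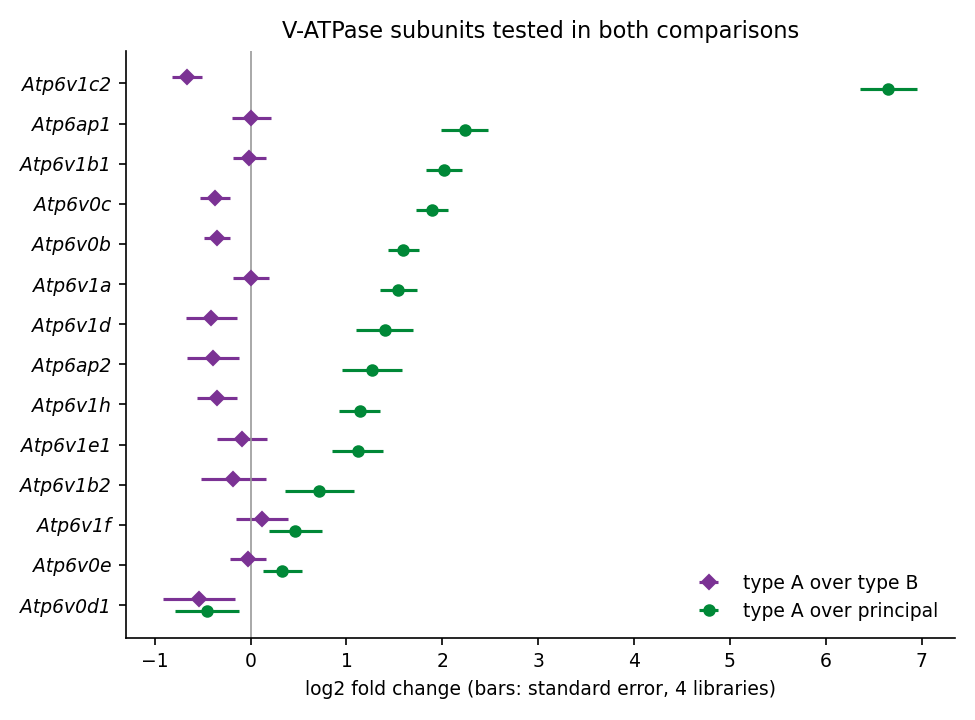
Log2 fold changes (horizontal axis) of 14 V-ATPase subunit genes tested in both comparisons, in type A over type B nuclei (diamonds) and type A over principal nuclei (circles). Bars are standard errors derived from the F statistic of the quasi-likelihood test. The diamonds lie between -0.66 and 0.12, and the circles reach 6.65, for *Atp6v1c2*.

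Against 1861 principal nuclei, chosen by *Aqp2*, *Fxyd4*, *Hsd11b2* and *Scnn1g*, the same test called 351 of 3113 genes higher (11.3%) and 347 lower (11.1%), or 22.4% in all. This comparison shares the type A sums with the previous one. Here 10 of 15 V-ATPase genes were higher and none lower, with a median of 1.27 against 0.01 over all genes. Type A nuclei needed a UMI of *Atp6v1g3*, *Atp6v0d2*, *Foxi1* or *Atp6v0a4*, and principal nuclei had none of these. As 3 V-ATPase genes thus split the gates, the part of that choice in the other subunits was not tested. *Atp6v1c2* stood in type A nuclei at 1514 and 988 CPM in MRL/lpr at 10 and 6 weeks, against 846 and 965 CPM in C57BL/6, and in principal nuclei at 4.56 to 17.97 CPM. *Atp6v1b1* was higher by 2.02 (SE 0.19, adjusted p = 8.5e-09) and *Atp6v1a* by 1.54 (SE 0.19, adjusted p = 1.3e-06). *Atp6ap1*, *Atp6v0c*, *Atp6v0b*, *Atp6v1h* and *Atp6v1e1* were higher by 2.23, 1.89, 1.59, 1.14 and 1.12, while *Atp6v0e* (0.33) and *Atp6v1f* (0.47) did not pass.

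Of 16 acid-base genes tested against principal nuclei, 8 were higher and 1 was lower, with a median of 0.63. Among all genes 11.3% were higher and 11.1% lower. *Slc4a9* was higher by 7.35 (SE 0.25, adjusted p = 8.0e-16), *Car12* by 3.16, *Car2* by 2.89 and *Rhbg* by 1.36. *Rhcg* had 0.00 (adjusted p = 0.995). *Bsnd*, which encodes the chloride channel subunit barttin, was higher by 1.83. Of 16 fate genes, 4 were higher and 6 lower, beside the same shares of all genes. *Tfcp2l1* was higher by 1.08 (SE 0.17, adjusted p = 2.1e-05), *Foxp1* by 2.37 and *Esrrg* by 0.63, and *Mecom* was lower, at -0.62.

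The largest differences upward from principal nuclei were *Clnk*, an adaptor of immune receptor signalling, *Calcr* and *Dscaml1*, none of which had a UMI there. *Clnk* had in type A nuclei 23 and 30 UMIs in MRL/lpr at 10 and 6 weeks, against 62 and 36 UMIs in C57BL/6, and was at least 203-fold higher. *Calcr* was at least 106-fold and *Dscaml1* at least 55.1-fold higher. *Clnk* was detected in 27.7% of type A, 12.05% of type B and 0.0895% of proximal tubule nuclei. *Tshr*, the thyrotropin receptor gene, stood in type A nuclei at 359 and 575 CPM in MRL/lpr at 10 and 6 weeks, against 569 and 669.8 CPM in C57BL/6, with 1 UMI in principal nuclei of each library. *Cpsf4l* had 6.45, and *Slc4a9*, *Dmrt2*, *Pdlim3*, *Atp6v1c2*, *Adgrf5*, *Nkain3* and *Lrrc31*, with 7.19 for *Dmrt2* and 6.44 for *Adgrf5*, completed the 12.

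Of 7 principal cell markers tested outside the genes that chose the principal nuclei, 6 were lower in type A nuclei and none higher. Among all genes 11.1% were lower and 11.3% higher. *Avpr2*, the vasopressin receptor of water reabsorption, had 2 UMIs in type A and 271 in principal nuclei and was 33.6-fold (9.21 to 279) lower when pooled, and *Kcne1*, a potassium channel subunit gene, 2 and 369 and was 45.8-fold (12.6 to 379) lower. *Mgat4c*, an N-glycan branching gene, had 1 and 611 UMIs, and *Pde10a*, a cyclic nucleotide phosphodiesterase gene, 12 and 1975. *Rasgrf2* had none and 92 and was at least 7.60-fold lower. *Btc* (betacellulin), *Gpc5* (a glypican), *Kcnc2* (a potassium channel), *Apela* (a ligand of the apelin receptor), *Gprc5b* and *Tmem45b* had log2 fold changes of -4.82 to -4.40. *Scnn1b* lay between the gates: it was lower than in principal nuclei, at -1.67 (SE 0.21, adjusted p = 1.4e-06) on the log2 scale, and higher than in type B nuclei, at 1.76 (SE 0.31, adjusted p = 1.2e-06).

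Of 16 hormone and signalling genes, 2 were higher and 3 lower than in type B nuclei, with a median of 0.04. Of all genes, 4.78% were higher and 5.81% lower. *Erbb4*, a neuregulin receptor gene, stood in type A nuclei at 667 and 880.0 CPM in MRL/lpr at 10 and 6 weeks, against 492 and 532 CPM in C57BL/6, and in type B nuclei at 97.4 to 322 CPM with a log2 fold change of 1.75 (SE 0.23, adjusted p = 1.4e-10). *Fgf12* (1.44) was the other higher gene, and *Prkca*, a protein kinase C gene, *Pde4d*, a cyclic AMP phosphodiesterase gene, and *Casr*, the calcium-sensing receptor gene, were lower, at -1.38, -0.88 and -3.07. *Wnk1*, a kinase gene of salt transport, and *Nr3c2*, the mineralocorticoid receptor gene, did not pass, with 0.21 and 0.25. Against principal nuclei *Nr3c2* was lower, at -0.66 (SE 0.17, adjusted p = 0.0056), and of 19 genes of the list 4 were higher and 6 lower. In that comparison 11.3% of all genes were higher and 11.1% lower.

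*Defb1*, which encodes the antimicrobial peptide beta-defensin 1, stood in type A nuclei at 2334 and 3035 CPM in MRL/lpr at 10 and 6 weeks, against 2755 and 2108 CPM in C57BL/6, and in type B nuclei at 355 and 425 CPM in MRL/lpr, against 437 and 405 CPM in C57BL/6. Its log2 fold change was 2.60 (SE 0.16, adjusted p = 2.3e-34), and 0.96 (SE 0.17, adjusted p = 1.2e-04) against principal nuclei. It was the 1 gene of 25 listed for innate defence that had enough UMIs to test against type B nuclei. The class I genes *B2m*, by 0.72 (SE 0.23, adjusted p = 0.026), and *H2-D1*, by 0.97 (SE 0.26, adjusted p = 0.0036), were higher than in type B nuclei, and *H2-K1* had 0.80 (SE 0.29, adjusted p = 0.051). Against principal nuclei the 3 did not pass, at -0.08, -0.13 and -0.23.

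Between strains, 778 genes outside the rule had at least 50 UMIs in members over the 4 libraries. A ratio of at least 2-fold was met upward at both ages by 7 genes (0.900%) and downward by 11 (1.41%), or 2.31% in all. At 10 weeks alone it was met by 4.76% upward and 7.97% downward, and at 6 weeks alone by 5.40% and 3.86%. By any amount, 29.9% of genes were higher and 26.2% lower at both ages. The median log2 ratio of all 778 was 0.02 at 10 weeks and 0.03 at 6 weeks, and TMM scaling moved that at 10 weeks to -0.09.

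**Figure D4:**
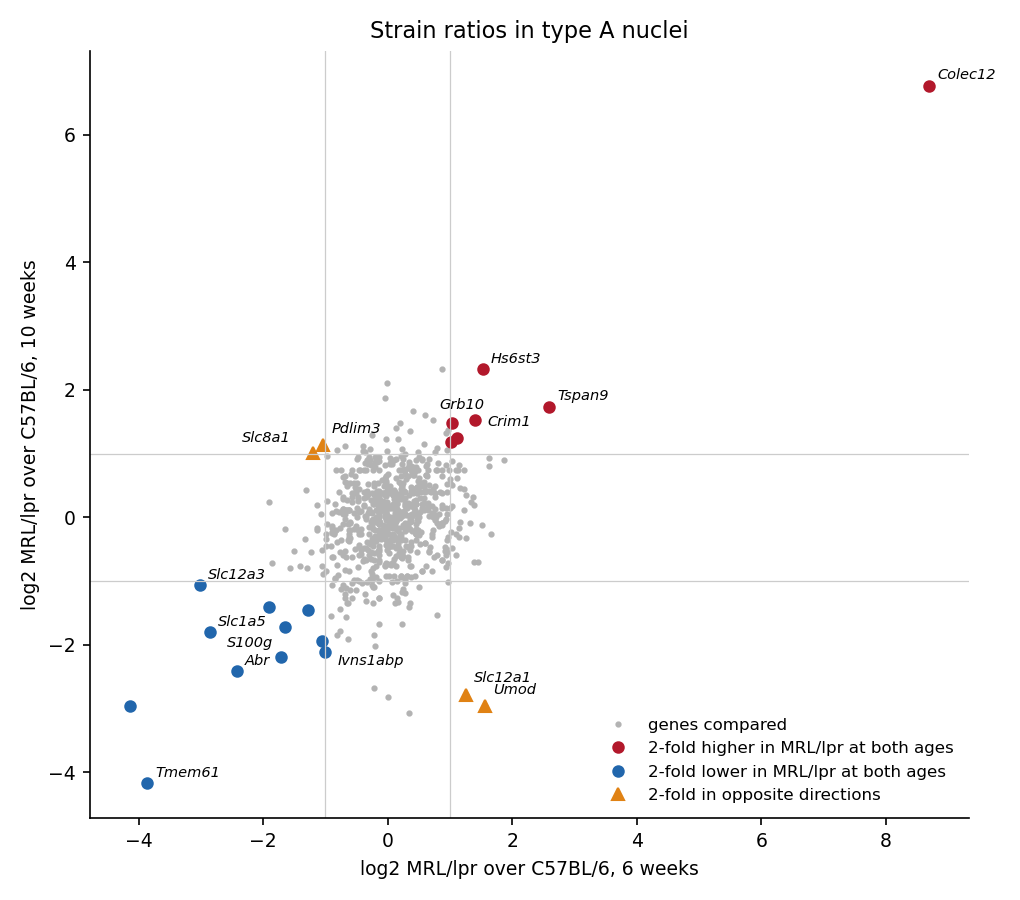
Log2 ratio of MRL/lpr over C57BL/6 in type A nuclei at 6 weeks (horizontal axis) and 10 weeks (vertical axis) for 778 genes; each point is a gene, grey lines mark 2-fold and a count of 0 was set at 3 UMIs. *Colec12* lies apart at 8.69 and 6.77, *Tmem61* is lowest at 10 weeks, and 4 genes (triangles) pass 2-fold in opposite directions. The values of *Colec12* at 10 weeks and *Tmem61* at 6 weeks rest on the setting of 0 at 3 UMIs.

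*Colec12*, a scavenger receptor gene of the collectin family, had in members 197 and 452 UMIs in MRL/lpr at 10 and 6 weeks, against 0 and 1 UMIs in C57BL/6. It was at least 109-fold higher at 10 weeks and 412-fold (73.6 to 16310.5) higher at 6 weeks. Other gates had the same direction, with 934 and 1720 UMIs in MRL/lpr type B nuclei, against 2 and 9 in C57BL/6. The log2 ratios in proximal tubule nuclei were 8.54 and 7.25, and in principal nuclei 8.84 and 7.47. Whether a sequence difference between strains changed what was counted was not tested.

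*Tmem61*, a transmembrane protein gene, was the reverse. It had in members 1 and 0 UMIs in MRL/lpr at 10 and 6 weeks, against 30 and 40 UMIs in C57BL/6, which in C57BL/6 lay in 25 of 126 and 31 of 97 nuclei with at most 3 in any. The log2 ratio at 10 weeks was -4.17 (interval 2.99 to 734-fold lower). At 6 weeks, with the 0 set at 3 UMIs, the level was 14.6-fold lower, and the interval began at 11.4-fold. Type B nuclei had 1 and 2 UMIs in MRL/lpr, against 47 and 49 in C57BL/6. Principal nuclei had 0 and 0 in MRL/lpr, against 4 and 1 in C57BL/6, and the level in proximal tubule nuclei was 0.969 CPM. Its RefSeq window in the same build, with 3 CpG in capitals, is shown because the gene was near 0 in MRL/lpr.
Tmem61, chr4:106506286-106506585, minus strand: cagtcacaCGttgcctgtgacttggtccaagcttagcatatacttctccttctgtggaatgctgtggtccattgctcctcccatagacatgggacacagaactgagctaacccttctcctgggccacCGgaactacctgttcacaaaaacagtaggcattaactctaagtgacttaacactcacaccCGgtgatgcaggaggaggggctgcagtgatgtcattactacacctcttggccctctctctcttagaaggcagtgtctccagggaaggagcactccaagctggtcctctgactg

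*Abr*, which encodes a regulator of small GTPases, stood in members at 231 and 162 CPM in MRL/lpr at 10 and 6 weeks, against 1231 and 867 CPM in C57BL/6. It was detected in 7.37 and 7.62% of members in MRL/lpr, against 41.3 and 36.1% of members in C57BL/6, and was 5.33-fold (2.67 to 12.1) lower at 10 weeks and 5.36-fold (2.58 to 12.5) lower at 6 weeks. Its log2 ratios at 10 and 6 weeks were -1.42 and -1.91 in type B, -1.84 and -1.73 in principal and 0.19 and -0.32 in proximal tubule nuclei. *Slc1a5*, a glutamine and neutral amino acid transporter gene, stood in members at 154 and 89.8 CPM in MRL/lpr at 10 and 6 weeks, against 539 and 650.1 CPM in C57BL/6, 3.50-fold (1.46 to 10.2) and 7.24-fold (2.81 to 23.8) lower. Other gates had the same direction, with log2 ratios at 10 and 6 weeks of -1.05 and -1.75 in type B and -1.48 and -2.72 in principal nuclei. In proximal tubule nuclei, with 13.7 CPM of it, they were -0.76 and -2.38.

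Among the other higher genes, *Hs6st3*, a heparan sulfate sulfotransferase gene, stood in members at 1154 and 736 CPM in MRL/lpr at 10 and 6 weeks, against 231 and 256 CPM in C57BL/6, 5.001-fold (2.74 to 9.66) and 2.88-fold (1.51 to 5.85) higher. It was detected in 31.6 and 28.6% of members in MRL/lpr, against 9.52 and 12.4% of members in C57BL/6. Type B nuclei had log2 ratios of 1.92 and 2.98. *Tspan9*, a tetraspanin gene, stood at 513 and 593 CPM in MRL/lpr at 10 and 6 weeks, against 154 and 98.5 CPM in C57BL/6, and *Grb10*, an adaptor gene of insulin signalling, at 641 and 682 CPM in MRL/lpr, against 231 and 335 CPM in C57BL/6. *Crim1* (log2 ratios 1.53 and 1.40), *Myo6*, an actin motor gene (1.24 and 1.11), and *Stxbp6*, a SNARE-binding protein gene (1.18 and 1.02), completed the 7. Pooled over libraries, *Myo6* stood at 394 CPM in members and at 693 CPM in proximal tubule nuclei, where its log2 ratios were 0.40 and 0.34. For *Stxbp6* both intervals of the ratio held 1 (0.976 to 5.47 and 0.882 to 5.05).

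Other lower genes were *S100g* (calbindin-D9k), *Vegfa* (an endothelial growth factor), *mt-Nd1* and *Uqcr11* (respiratory chain subunits), *Kidins220*, *Ivns1abp* and *Slc12a3*, with log2 ratios of -2.20 to -1.06 at 10 weeks and -3.02 to -1.01 at 6 weeks. *Uqcr11* stood at 423 CPM in members and 427 CPM in proximal tubule nuclei, pooled over libraries. *Slc12a3*, the sodium chloride cotransporter gene of the distal convoluted tubule, had 21 and 16 UMIs in MRL/lpr at 10 and 6 weeks, against 73 and 118 UMIs in C57BL/6. Nuclei with 5 or more of these UMIs numbered 1 and 1 in MRL/lpr and 4 and 7 in C57BL/6, and held 16 and 7 of them in MRL/lpr and 58 and 105 in C57BL/6. Members had it in 4.21 and 8.57% in MRL/lpr at 10 and 6 weeks, against 13.5 and 19.6% in C57BL/6. Proximal tubule nuclei, which should lack it, had it in 7.69 and 8.37% in MRL/lpr, against 12.3 and 19.95% in C57BL/6, so its share in members was not read as expression. *S100g* had 14 and 21 UMIs in MRL/lpr at 10 and 6 weeks, against 107 and 63 UMIs in C57BL/6, of which 1 nucleus of C57BL/6 at 10 weeks held 54. It was in 8.42 and 18.1% of members in MRL/lpr, against 30.2 and 29.9% of members in C57BL/6, and in 10.6 and 15.5% of proximal tubule nuclei in MRL/lpr, against 28.6 and 21.6% of proximal tubule nuclei in C57BL/6. No member held more than 3 UMIs of *Abr* or 2 of *Slc1a5*. The part of other cells or free RNA in the UMIs of these 2 genes was not tested.

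**Figure D5:**
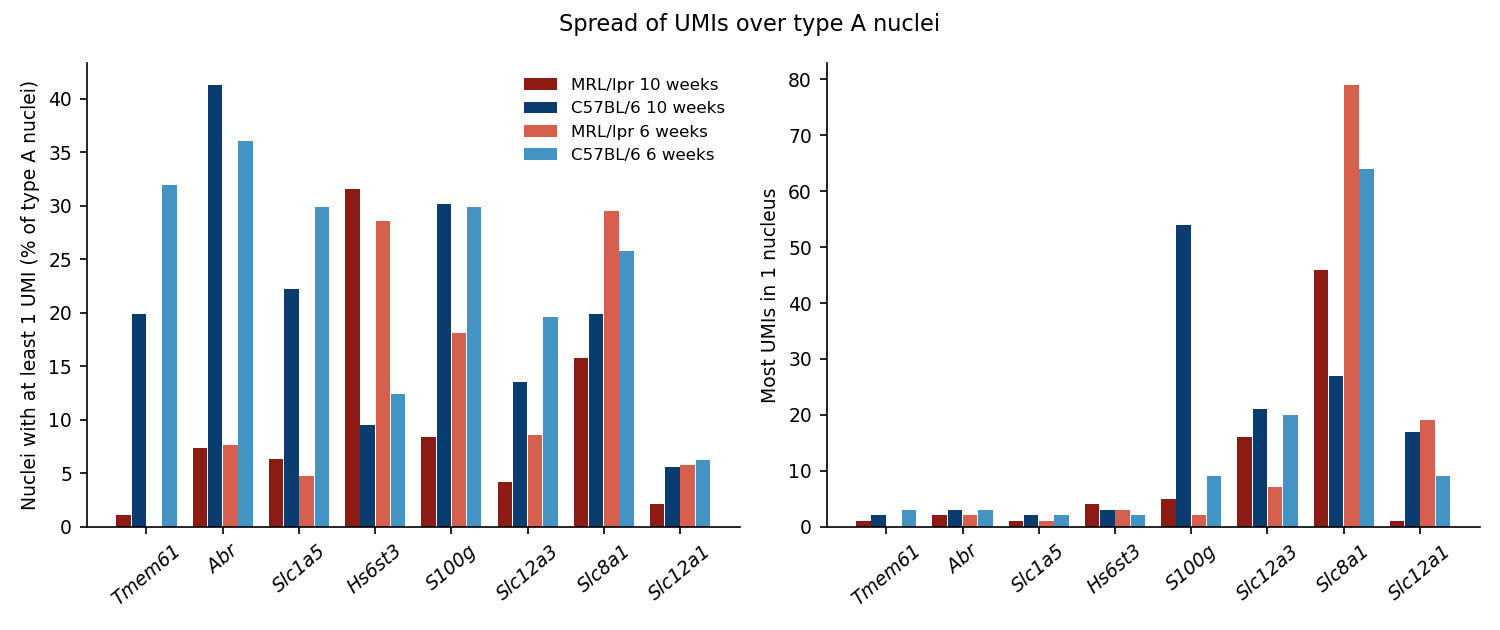
Percent of type A nuclei with at least 1 UMI (left) and the most UMIs in 1 nucleus (right) for 8 genes in each library; bars are single libraries, with no error. *Tmem61*, *Abr*, *Slc1a5* and *Hs6st3* reach at most 4 UMIs in a nucleus, whereas *S100g* reaches 54 and *Slc8a1* 79.

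A further 4 genes passed 2-fold in opposite directions at the 2 ages: *Pdlim3*, *Slc8a1*, *Slc12a1* and *Umod*, named because they are few, after their values were seen. *Slc8a1*, a sodium-calcium exchanger gene of the connecting tubule, had 92 and 146 UMIs in MRL/lpr at 10 and 6 weeks, against 76 and 307 UMIs in C57BL/6. Nuclei with 5 or more of these held 78 and 111 in MRL/lpr and 48 and 287 in C57BL/6. *Slc12a1*, a transporter gene of the thick ascending limb, had 2 and 47 UMIs in MRL/lpr at 10 and 6 weeks, against 23 and 18 UMIs in C57BL/6, and *Umod*, which encodes uromodulin, 1 and 29 UMIs in MRL/lpr, against 13 and 9 UMIs in C57BL/6. In MRL/lpr at 6 weeks 44 of the *Slc12a1* UMIs lay in 3 nuclei and 27 of the *Umod* UMIs in 2. The part of other tubule cells in these sums was not tested.

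Of 11 acid-base genes compared, 7 were lower and 1 higher in MRL/lpr at each of the 2 ages, with medians of -0.45 at 10 weeks and -0.25 at 6 weeks, and TMM scaling left these counts as they were. Of all 778 genes, 26.2% were lower and 29.9% higher by any amount at both ages. *Rhbg* stood at 693 and 772 CPM in MRL/lpr at 10 and 6 weeks, against 1231 and 1241 CPM in C57BL/6, *Rhcg* at 949 and 718 CPM in MRL/lpr, against 1416 and 965 CPM in C57BL/6, and *Fxyd2*, a sodium pump regulator gene, at 693 and 1562 CPM in MRL/lpr, against 2047 and 2482 CPM in C57BL/6. For *Rhcg* the MRL/lpr library at 10 weeks, at 949 CPM, lay close to the C57BL/6 library at 6 weeks, at 965 CPM. The *Fxyd2* level in proximal tubule nuclei was 1819.8 and 2793 CPM in MRL/lpr, against 2633 and 3182 CPM in C57BL/6. *Car2* was the higher gene, at 2155 and 1759.9 CPM in MRL/lpr, against 1354 and 1319.9 CPM in C57BL/6. *Slc4a9* had log2 ratios of 0.54 and -0.15. No member of the list was 2-fold apart at both ages.

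Of 10 V-ATPase genes, 5 were higher and none lower in MRL/lpr at 10 and at 6 weeks, with medians of 0.42 and 0.15. With TMM scaling 4 were, since *Atp6ap1* then had -0.03 at 10 weeks. Among all 778 genes, 29.9% were higher and 26.2% lower at both ages. *Atp6v0b*, of the membrane sector, stood at 2719 and 2460.3 CPM in MRL/lpr at 10 and 6 weeks, against 1554 and 1891 CPM in C57BL/6. *Atp6v1h* had log2 ratios of 0.80 and 0.62, *Atp6v1a* 0.53 and 0.22, *Atp6v1c2* 0.84 and 0.03 and *Atp6v1b1* 0.25 and -0.17. None was 2-fold apart at both ages. Of 6 type A markers, 4 were lower and 2 higher at both ages, beside the same shares of all genes. *Mme*, one of the higher, stood at 1026 and 969.8 CPM in MRL/lpr at 10 and 6 weeks, against 539 and 315 CPM in C57BL/6, with log2 ratios of 0.93 and 1.62, and *Adgrf5* had 0.22 and 0.14. *Dmrt2* had -0.80 and -0.23.

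Of 17 nuclear-encoded respiratory chain genes, 8 were lower and 1 higher in MRL/lpr at 10 and at 6 weeks, with medians of -0.32 and -0.28, and with TMM scaling 9 were lower. Over all 778 genes, 26.2% were lower and 29.9% higher at both ages. *Cox7c*, a cytochrome c oxidase subunit gene, stood at 257 and 647 CPM in MRL/lpr at 10 and 6 weeks, against 969 and 1005 CPM in C57BL/6, and *Cox6c* at 539 and 682 CPM in MRL/lpr, against 1062 and 965 CPM in C57BL/6. Restricted to members with no proximal tubule UMI, the medians of the list were -0.07 at 10 weeks and -0.35 at 6 weeks. None of 33 such genes passed against type B nuclei, and 3 of 34 were higher than in principal nuclei (*Cox7c*, *Cox6c* and *Cox7a2*), where 11.3% of all genes were higher. Of 4 mitochondrially encoded genes, 2 were lower at both ages, with medians of -1.38 and -0.34. *mt-Co1*, of the same oxidase, had 5 and 22 UMIs in MRL/lpr at 10 and 6 weeks, against 59 and 20 UMIs in C57BL/6, and 1 nucleus of C57BL/6 at 10 weeks held 23 of these. The part of RNA from outside the nucleus was not tested.

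Immune genes were mostly too low to compare singly. Of 33 interferon gamma and antigen processing genes 3 reached 50 UMIs, *B2m* (log2 ratios -0.35 and 0.22), *H2-D1* (-1.09 and -0.22) and *H2-K1* (-0.9997 and 0.16), and of 24 type I interferon genes none did. Type I interferon genes summed to 975 and 647 CPM in MRL/lpr at 10 and 6 weeks, against 508 and 749 CPM in C57BL/6. Their summed ratios were 1.92 (1.17 to 3.16) and 0.864 (0.532 to 1.40). For the 33 interferon gamma genes they were 0.788 (0.569 to 1.08) and 1.02 (0.738 to 1.42). The 7 MHC class II genes summed to 12 and 41 UMIs in MRL/lpr and 7 and 15 in C57BL/6. Their summed ratios were 2.86 (1.04 to 8.57) and 2.49 (1.35 to 4.85), with counting error only. *Cd74*, the class II invariant chain gene, had 14 of its 19 UMIs in MRL/lpr at 6 weeks in 1 nucleus. It was detected in 5.26% and 4.76% of members in MRL/lpr and 2.38% and 5.15% in C57BL/6, and in 11.5% and 9.86% of proximal tubule nuclei in MRL/lpr and 9.81% and 3.78% in C57BL/6.

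None of 7 early response and stress genes passed against type B nuclei, whereas against principal nuclei 4 of 8 were higher and 1 was lower, where 22.4% of all genes were called in either direction. The higher ones, with log2 fold changes in brackets, were the AP-1 factor genes *Jun* and *Jund*, the DNA damage gene *Gadd45a* and *Txnip*, which encodes an inhibitor of thioredoxin: *Jun* (2.38), *Jund* (1.21), *Gadd45a* (1.78) and *Txnip* (0.97), and the lower one *Ier3* (-1.32). Of 2 injury genes tested, *Spp1*, the osteopontin gene, was lower than in type B nuclei, at -0.96, and both were lower than in principal nuclei, *Spp1* (-0.95) and *Clu* (-2.19). Of 4 clock genes none passed against type B nuclei, and *Rora*, a retinoic acid receptor-related orphan receptor gene, was lower than in principal nuclei. Of 2 type I interferon genes both were higher than in principal nuclei, *Ifi27* (1.34) and *Bst2* (1.05), and the 1 tested against type B nuclei did not pass. *P2ry14*, a nucleotide sugar receptor gene counted under innate defence, was higher than in principal nuclei, at 1.43. Beside these short lists, 11.3% of all genes were higher and 11.1% lower than in principal nuclei. Against type B nuclei the shares were 4.78% and 5.81%. No proliferation gene of 16 was high enough to test.

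Between ages, 1 of 778 genes passed 2-fold upward from 6 to 10 weeks in each strain (0.129%) and 4 downward (0.514%), or 0.643% in all. *Kif21a*, a kinesin gene, was higher, at 410.4 CPM at 10 weeks against 198 at 6 weeks in MRL/lpr, and 508 against 217 in C57BL/6. Among the lower genes were *Deptor*, an mTOR inhibitor gene, *Ube2h*, of ubiquitin transfer, and *Vdr*, the vitamin D receptor gene. *Vdr* was at 179.6 CPM against 359 in MRL/lpr, and 169 against 433 in C57BL/6. For all 5 the interval of the ratio in MRL/lpr held 1.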

How the data were processed

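Per the labels' protocols, nuclei were isolated on an iodixanol gradient and loaded on a droplet platform with poly-dT primed 3' libraries. The deposited files hold counts of UMIs per gene and barcode for 4 libraries. Their headers name Cell Ranger 5.0.0, whereas the submitters' processing notes name 3.1.0. The genome build, the barcode calling and the treatment of intronic reads were not given in the sources used here. From these counts, barcodes were gated, UMIs were summed per gate and library, and CPM was computed over all UMIs of a gate. Median depths of 393 to 471 UMIs per member limit which genes can be compared.

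Type A was compared with type B and principal nuclei with edgeR 4.0.16 (R 4.3.3), using TMM scaling, filterByExpr and the quasi-likelihood test with library as a block, since both sums of a library come from the same droplets. The principal gate needed at least 2 UMIs of its 4 genes and no UMI of the intercalated, type A or type B genes, and it and the type B gate kept the proximal tubule limit. The 4 libraries differ in strain and age, and the block takes up differences in level between them. The p-values rest on how far the difference between gates varied over the libraries. The test shares information on this variance across genes, so small p-values do not rest on the sums of a gene alone. Each standard error (SE) is the absolute log2 fold change divided by the square root of the F statistic of that test. Strain and age ratios are CPM ratios with conditional exact binomial 95% intervals for genes with at least 50 UMIs. A count of 0 was set at 3 UMIs, per library for strain and age ratios and over the group for gates. Folds written as at least rest on this setting and are not limits of 95% intervals. Doublets were not removed, and leaving out the barcodes that Scrublet (in scanpy 1.11.5) scored highest was an alternative. UMIs from free RNA were not corrected for. DESeq2 1.42.0 was another alternative.

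Members, gene lists and naming rules were chosen with earlier results of these data known. Named between gates were the 12 genes a direction with the largest differences among genes past the threshold in the same direction in all 4 libraries. Between strains these were up to 12, and between ages up to 5, genes a direction at least 2-fold apart at both ages or in both strains. From lists, up to 4 members with most UMIs were named, and all V-ATPase, type A and type B markers with at least 50 UMIs. Other list members that passed a test between gates, the subsets of members, shares of nuclei with a UMI, UMIs per nucleus and the genes plotted were chosen after their values were seen. Some genes that these rules name are not reported here. The edgeR fit and the ratio intervals were tested on simulated data. Promoter windows are from RefSeq (GRCm38.p6), which was not used for the counts.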

Additional observations from a re-analysis of the deposited data

Results flagged for a closer look

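The strain ratio of 4 genes exceeded 2-fold in opposite directions at 10 and 6 weeks. With 1 library per strain and age, the difference between ages was not tested. *Pdlim3* had log2 ratios, MRL/lpr over C57BL/6, of 1.13 at 10 weeks and -1.04 at 6 weeks, on 21 UMIs in MRL/lpr against 16 in C57BL/6 and on 8 against 15. *Slc8a1* had 1.013 at 10 weeks and -1.206 at 6 weeks. *Slc12a1* had -2.786 and 1.251, and *Umod* -2.963 and 1.555. *Slc8a1*, *Slc12a1* and *Umod* are on the lists of other distal segments. In MRL/lpr at 6 weeks, nuclei with 5 or more UMIs of the gene held 111 of 146 *Slc8a1* UMIs, 44 of 47 *Slc12a1* UMIs and 27 of 29 *Umod* UMIs.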

How the results depend on the processing

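In the comparison with type B nuclei, 107 genes were higher and 130 lower. The gates were paired by library, as a block. Without the library block the counts were 63 and 68, and all 131 were among the 237 calls. DESeq2 with the block gave 44 and 45, and without a filter on low counts 198 were lower. With 2 UMIs of each gene group 62 were higher and 69 lower, and with no proximal tubule UMI 80 were lower. Against principal nuclei, DESeq2 gave 204 higher and 219 lower, no filter gave 603 lower, and 2 UMIs of each group gave 210 higher. Without the block the principal counts were 314 and 322. Leaving out each library in turn gave 73 to 110 higher and 88 to 120 lower against type B nuclei, and 266 to 324 higher and 298 to 346 lower against principal nuclei. The cause of these shifts was not tested.

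The share ratios with 2 UMIs of each gene group were 0.479 at 10 weeks and 0.855 at 6 weeks. The counts of 7 higher and 11 lower genes in MRL/lpr were 4 and 6 after thinning to 300 UMIs, 4 and 7 with 2 UMIs of each gene group, and 3 and 5 without nuclei holding 2 UMIs of another class. Fewer genes reached the minimum there, 188 in the last of these, where *Colec12*, *Hs6st3*, *Abr* and *Ivns1abp* were the 4 of the 18 still called. A minimum of 20 UMIs gave 67 and 70 genes, and 100 UMIs gave 2 and 4. Between ages, 100 UMIs left 0 higher and 0 lower, and no proximal tubule UMI gave 3 higher. For *S100g* at 10 weeks the log2 ratio was -1.22 with no proximal tubule UMI and -3.97 after thinning, against -2.20 as reported. Over hormone and fate genes the median strain ratio at 10 weeks, near 0, changed sign with TMM scaling, so no direction was given. A fit of strain with age as a block, which leaves 1 residual degree of freedom, was not run. Depths of 50 to 100 UMIs per gene over 4 libraries leave wide intervals.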
